A study of Mus musculus with 69 samples.

Results

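Kidneys of nephritic NZB/W F1 mice were compared with kidneys of young mice of the same strain at ZT20, 8 h into the dark phase. Of 69 libraries in the series, 57 were young or nephritic, and the 7 labelled ZT20 were chosen by their diagnosis and time labels, 3 nephritic and 4 young. NZB/W F1 mice, the cross of the NZB and NZW strains, develop lupus nephritis as they age. Young mice were 12 weeks old. Nephritic mice were 30 to 45 weeks old and were taken 2 to 3 weeks after proteinuria had passed 300 mg/dl and before blood urea nitrogen exceeded 25, so age and disease cannot be told apart. All 7 kidneys were perfused with PBS, none was from a mouse under remission treatment, and whole-kidney RNA was sequenced. In whole tissue, fewer cells of a type and less RNA per cell cannot be told apart. Mice were kept under 12 h of light and 12 h of dark, with lights on at ZT0 and off at ZT12. Levels are given as CPM, counts scaled to library size and corrected with edgeR's TMM factors. Values are listed in the order ZT20RU, ZT20RL, ZT20LU and ZT200 for young libraries and RX110, RX90 and RX8LU for nephritic libraries. Total counts per library were 30686035 to 33493416 in young and 29372601 to 48075977 in nephritic mice.

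The circadian clock is a feedback loop of transcription. Arntl (Bmal1) pairs with Clock or Npas2 and turns on Per, Cry, Nr1d1 and Dbp family genes through E-boxes, the Per and Cry proteins shut that pair off, and Nr1d1 and Nr1d2 repress Arntl through ROR elements while Dbp and Tef act through D-boxes. In kidney the clock times transport and metabolism, and other daily signals, such as glucocorticoids, reach the tissue beside it. In lupus nephritis, immune complexes in the glomerulus are followed by entry of lymphocytes and macrophages and by injury of tubule cells.

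Promoters of 4 clock genes are shown because the level of 3 of them was called different at ZT20 and because they carry different known elements of the loop. Each runs from 250 bases before to 50 bases after the RefSeq start on GRCm38.p6, in the direction of transcription, with capitals for the E-box CACGTG, the D-box TTATGTAA or the ROR element AGGTCA, searched on both strands. Per3, chr4:151044616-151044915 on the minus strand, holds 2 D-boxes. Arntl, chr7:113207261-113207560 on the plus strand, holds 1 ROR element. Ciart, a repressor of the loop at chr3:95882179-95882478 on the minus strand, holds 3 E-boxes. Nr1d1, chr11:98775328-98775627 on the minus strand, holds none of the 3 motifs in this window.
Per3: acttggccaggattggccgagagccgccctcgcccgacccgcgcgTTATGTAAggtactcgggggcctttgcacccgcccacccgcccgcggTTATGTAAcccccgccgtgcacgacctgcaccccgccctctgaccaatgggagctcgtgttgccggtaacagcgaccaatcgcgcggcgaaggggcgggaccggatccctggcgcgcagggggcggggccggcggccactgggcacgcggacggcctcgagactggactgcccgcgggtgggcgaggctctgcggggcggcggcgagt
Arntl: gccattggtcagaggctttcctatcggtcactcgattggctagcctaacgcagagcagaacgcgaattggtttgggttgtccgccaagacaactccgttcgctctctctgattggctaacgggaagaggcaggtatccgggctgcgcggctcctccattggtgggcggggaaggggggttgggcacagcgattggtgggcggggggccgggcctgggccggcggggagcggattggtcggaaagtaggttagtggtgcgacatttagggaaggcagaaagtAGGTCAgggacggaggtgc
Ciart: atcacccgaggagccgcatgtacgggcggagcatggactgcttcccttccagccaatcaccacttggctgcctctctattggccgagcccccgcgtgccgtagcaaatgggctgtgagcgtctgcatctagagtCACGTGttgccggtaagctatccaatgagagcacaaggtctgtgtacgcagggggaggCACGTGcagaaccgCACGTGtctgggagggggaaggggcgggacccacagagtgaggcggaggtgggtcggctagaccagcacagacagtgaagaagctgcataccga
Nr1d1: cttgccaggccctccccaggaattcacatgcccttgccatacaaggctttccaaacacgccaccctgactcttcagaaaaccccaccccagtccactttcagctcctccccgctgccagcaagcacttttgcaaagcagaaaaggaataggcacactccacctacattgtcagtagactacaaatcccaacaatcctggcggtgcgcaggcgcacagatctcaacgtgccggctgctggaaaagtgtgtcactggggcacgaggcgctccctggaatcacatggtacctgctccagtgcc
Of the 38 genes in the clock lists, 31 had a promoter in the table, with 44 promoters in all, of which 9 held an E-box, 3 a D-box and 6 a ROR element. Over all 32851 promoters of the table the shares were 7.15% for the E-box, 0.938% for the D-box and 16.3% for the ROR element. A match is a description of the letters and not a binding site.

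3 features of these libraries bear on what follows. One is that nephritic RX8LU lay between the other 2 nephritic libraries. Of 298 genes with a mean of at least 5 CPM that differed more than 2-fold between RX110 and RX90, RX8LU was between them for 293 (98.3%), at a median of 0.75 of the way from RX90 to RX110 (quartiles 0.676 and 0.791). The other 24 nephritic libraries lay between RX110 and RX90 for 8.73% to 87.3% of these genes. Among 428 sets of 3 libraries of one group and time with at least 20 such genes, 2 reached 95%, this one and one in young mice of ZT12. The root mean square log2 distance was 0.140 between RX110 and RX8LU, 0.420 between RX110 and RX90, and 0.335 between RX90 and RX8LU, beside a median of 0.409 over 120 pairs of one group and time. Counts that rest on RX8LU are therefore also given without it, and the labels do not state that the libraries came from separate mice, so p-values measure the spread between these libraries.

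**Figure D1:**
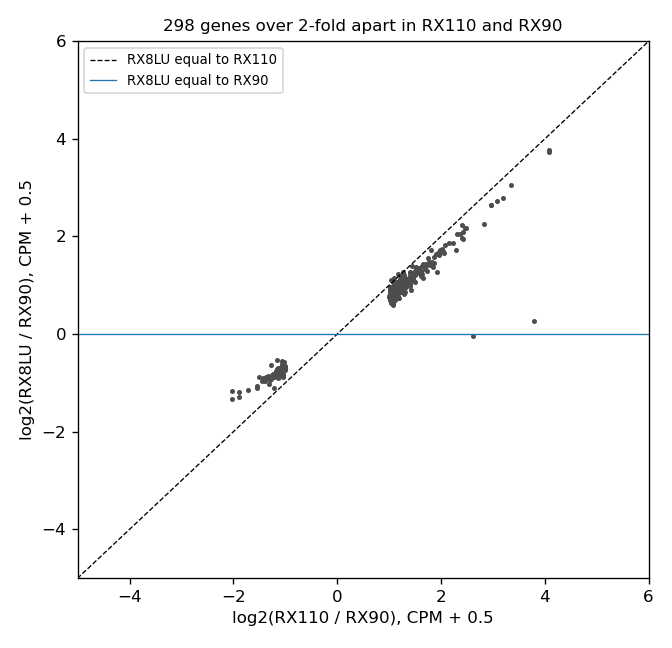
Each point is 1 of 298 genes with a mean of at least 5 CPM that differed over 2-fold between nephritic RX110 and RX90. The x axis is the log2 ratio of RX110 to RX90 and the y axis that of RX8LU to RX90, both after adding 0.5 CPM, and for 293 genes RX8LU falls between the horizontal line (equal to RX90) and the dashed line (equal to RX110).

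All 7 libraries carried kidney transcripts, such as the proximal tubule gene Lrp2 at 1547 to 4228 CPM. Another feature is that young ZT20LU held adrenal transcripts. The sum of 11 adrenal markers was 897 CPM in ZT20LU, at most 10.8 CPM in the other young libraries and 7.52 to 8.93 CPM in the nephritic libraries. Its log2 distance to the other young libraries was 0.444 to 0.557, beside 0.192 to 0.281 among the other 3. Markers of other neighbouring tissues moved less. The sum of 11 adipocyte markers was 409 to 920 CPM in young and 703 to 764 CPM in nephritic libraries, that of 6 urothelial markers 33.5 to 77.9 and 15.9 to 41.5 CPM, and 6 of 7 erythroid markers were at 0 in all 7 libraries. Muscle markers (5 genes) summed to 1.58 to 2.12 and 2.28 to 3.85 CPM, and exocrine pancreas markers (5 genes) to 70.2 to 109 and 79.1 to 123 CPM. Their part in the results was not tested. In addition, the nephritic libraries labelled ZT16 and ZT20 gave clock readings in the reverse order of their labels, as described with the readings. The ZT20 label of the 3 nephritic libraries is therefore in doubt and was not checked apart from these readings. Nephritic readings departed from the label at other times as well. Differences at ZT20 are by label.

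At ZT20 the nephritic kidney differed from the young kidney mainly by higher levels. Of 15181 genes tested, 964 were higher (6.35%) and 216 lower (1.42%), 1180 in all (7.77%), at an adjusted p of 0.05 by edgeR's quasi-likelihood test, and 3207 had an unadjusted p under 0.05. The groups did not overlap for 3084 genes (20.3%), among them 941 of the genes called higher and all 216 called lower. The median log2 change over all genes was -0.0059. Without RX8LU, 402 genes were higher (2.69%) and 38 lower (0.254%) of 14959 tested. Without young ZT20LU, 1107 were higher (7.39%) and 534 lower (3.57%) of 14976 tested, and without both libraries 357 were higher (2.42%) and 66 lower (0.448%) of 14724. Without RX90, 1432 were higher and 621 lower, and without RX110, 394 were higher and 47 lower. RX90 was the nephritic library nearest the young mean for 872 of the 964 genes called higher and 109 of the 216 called lower.

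Most called genes left the range that young kidneys cover over a day. Set beside the young means of the 6 times, the nephritic mean was above all of them for 916 and within their range for 48 of the genes called higher, and below all of them for 184 and within for 32 of those called lower. Over all genes tested the nephritic mean was outside this range for 7625 (50.2%). The gene lists differed in their share of calls. Of 140 immune genes tested, 105 were higher and 1 lower, with a median log2 change of 1.86. Of 69 injury, matrix and cell cycle genes 36 were higher and 0 lower, with a median of 1.06. The clock lists had 2 higher and 2 lower of 37 and a median of 0.11. Genes of kidney function gave 2 higher and 4 lower of 74 (median -0.04), and genes of metabolism 1 higher and 6 lower of 54 (median -0.18). Over all genes tested 6.35% were higher and 1.42% lower, 7.77% in all. The kidney calls are few and near that total share, and no direction is read from them. In the fit without RX8LU, 1 kidney gene and 3 metabolic genes were lower. Without RX8LU the counts were 74 higher for immune, 15 higher for injury and 0 higher and 1 lower for clock genes. Without ZT20LU they were 101, 32, and 3 higher and 2 lower.

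The clock of the nephritic kidneys read earlier than its label. Each library was read against young libraries of the times other than its own label, by fitting the levels of 12 clock genes to their young 24 h curves, which gives a time of day and an amplitude relative to young mice. Young ZT20 libraries read 19.67, 18.85, 20.02 and 19.20 h, and nephritic libraries 17.54, 17.90 and 17.64 h. The 3 nephritic readings were all earlier than the 4 young ones. The mean difference from the label was -2.31 h in nephritic and -0.562 h in young mice, 1.75 h apart, and leaving out each of the 12 genes in turn gave 1.44 to 2.22 h. The 7 young libraries of ZT0 read -3.79 to -1.14 h from their label (mean -1.96 h). Nephritic libraries read -3.95 to -1.18 h from their label at ZT0 (mean -2.42 h) and -1.2 to -0.08 h at ZT4. At ZT8 they read -5.83 to 0.79 h from it, and at ZT12 -8.29 to 4.57 h. An offset of this size was thus not particular to nephritic ZT20. No test was made, since the reading is a description. The relative amplitude overlapped between the groups, at 0.786 to 0.814 in nephritic and 0.733 to 0.812 in young mice.

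The offset had the opposite sign at nephritic ZT16. Nephritic libraries labelled ZT16 read 4.57 to 7.07 h later than their label, at 20.6 to 23.1 h, and thus later in the day than those labelled ZT20. Young libraries of ZT16 read 1.19 to 1.41 h later than their label, at 17.2 to 17.4 h, so the nephritic ZT20 readings lay just after those of young ZT16 mice and before those of young ZT20 mice. Some genes, such as the clock genes, Fkbp5, C4b, Angptl4 and Lcn2, differ in young level between ZT16 and ZT20. For them, a difference of nephritic from young kidney and one of the label from the time of sampling cannot be told apart here. With 100 other rhythmic genes of large amplitude in place of the clock genes, 88 of which peaked nearest ZT16 and 16 of which are markers of other tissues, both groups read later than the label, by 4.53 h in nephritic and 4.23 h in young mice.

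**Figure D2:**
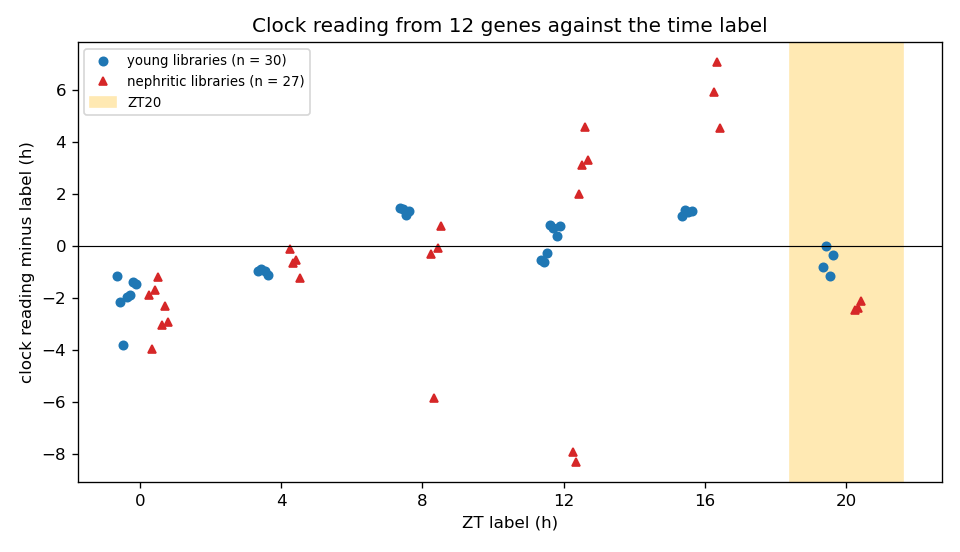
The clock reading from 12 genes minus the time label (hours, y axis) is plotted by label (x axis) for 30 young (circles) and 27 nephritic (triangles) libraries, each point 1 library. At ZT20 the 3 nephritic points lie between -2.46 and -2.10 h, below the 4 young points, while at ZT16 the 3 nephritic points lie between 4.57 and 7.07 h.

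Of the 4 activators, 1 was called. Arntl (chr7:113178471-113314126, mm10) was 40.7, 37.9, 50.7 and 44.8 CPM in young mice and 25.1, 33.4 and 26.1 CPM in nephritic mice. All nephritic values were below all young values, a log2 change of -0.63 (SE 0.14, adjusted p = 0.028), with an adjusted p of 0.15 without RX8LU. Npas2, the Clock relative that also pairs with Arntl, was 32.2, 24.9, 31.1 and 31.5 CPM in young mice and 14.2, 29.7 and 17.8 CPM in nephritic mice. RX90 was within the young range and the other nephritic libraries below it, and the change of -0.55 did not pass (adjusted p = 0.21). Clock itself was 65.8, 68.9, 103 and 68.7 CPM in young mice and 64.3, 61.7 and 68 CPM in nephritic mice, overlapping, with an adjusted p of 0.43. Arntl2, a relative of Arntl that also pairs with Clock, was 1.70, 1.85, 1.73 and 1.61 CPM in young mice and 2.94, 1.94 and 2.98 CPM in nephritic mice. Its nephritic values were all above its young values, and the change of 0.61 did not pass (SE 0.21, adjusted p = 0.14, and 0.48 without RX8LU).

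Of the repressors, Per2 (chr1:91415977-91459351) was 27.7, 40.9, 33.6 and 35.9 CPM in young mice and 56.3, 44.4 and 52.2 CPM in nephritic mice. The groups did not overlap, and Per2 was higher by 0.56 (SE 0.14, adjusted p = 0.042) on the log2 scale. Per3 (chr4:150997018-151044707), whose promoter with 2 D-boxes is printed with the others, was 15, 16.9, 15.4 and 16.8 CPM in young mice and 23.9, 20.7 and 23.8 CPM in nephritic mice. It was likewise higher in every nephritic library, by 0.51 (SE 0.10, adjusted p = 0.018) on the log2 scale. Without RX8LU neither passed, at adjusted p values of 0.17 and 0.11. Cry1, at 30.7 to 31.8 CPM in young and 30.1 to 32.2 CPM in nephritic mice, gave a log2 change of -0.01 (SE 0.08, adjusted p = 0.96).

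Nr1d1 (chr11:98767932-98775377), which encodes the repressor Rev-erb alpha, was 7.08, 7.68, 9.41 and 8.74 CPM in young mice and 4.30, 4.31 and 4.34 CPM in nephritic mice. The nephritic values were nearly equal and below every young value, and Nr1d1 was lower, with a log2 difference of -0.93 (SE 0.15, adjusted p = 0.006), with an adjusted p of 0.044 without RX8LU. Its relative Nr1d2 was 24.8, 22.8, 34.1 and 23.2 CPM in young mice and 34.1, 31.6 and 38.7 CPM in nephritic mice and did not pass (log2 change 0.41, adjusted p = 0.17). Dbp, an output of the loop that binds D-boxes, was 4.53, 6.30, 4.30 and 5.89 CPM in young mice and 7.72, 7.79 and 6.32 CPM in nephritic mice, without overlap but not past the test (adjusted p = 0.17). Ciart was 1.37, 1.38, 1.61 and 1.36 CPM in young mice and 1.77, 1.97 and 2.40 CPM in nephritic mice, also without overlap, at an adjusted p of 0.2.

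The 4 calls among clock genes depended on the fit. Over 16 alternative settings the sign of each stayed the same, while Nr1d1 was called in 13 (adjusted p of 8.15e-07 to 0.224), Arntl in 9 (0.00106 to 0.293), and Per2 and Per3 in 7 each (0.00567 to 0.388 and 0.000291 to 0.381).

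Set beside the young day, most genes of the clock reading stood in nephritic ZT20 kidneys between young ZT16 and young ZT20. Arntl had young means of 22.7 CPM at ZT16 and 44.1 CPM at ZT20 and a nephritic mean of 27.7 CPM. For Npas2 these were 9.64, 30.3 and 20.2 CPM, for Per2 64.2, 34.9 and 49.9 CPM, and for Per3 35.2, 16.2 and 22.3 CPM. This held for 9 of the 12 genes of the reading and 18 of the 37 clock list genes (48.6%). Over all 15181 genes the number was 3567 (23.5%). Among 6386 that passed a rhythm test in young libraries of the other times it was 1629 (25.5%), close to the share over all genes. Immune lists gave 17 of 140 (12.1%) and injury lists 5 of 69 (7.25%). The 12 genes gave the reading themselves and are among the 37, so their share in part restates the reading. These shares were not matched for the width of the gap between the 2 young means. Exceptions among the 12 genes of the reading were Cry1 and Nfil3, which have close young means at the 2 times, and Nr1d1. The nephritic mean of Nr1d1 was 4.24 CPM, below its lowest young mean of 6.24 CPM at ZT16. In a separate fit of 46 libraries of all times, its log2 change was -0.55 against young ZT16 (adjusted p = 0.43). Against young ZT20 in that fit it was -0.94 (adjusted p = 0.12), so Nr1d1 passed against neither time there. Of the 4 clock genes called, Arntl, Per2 and Per3 were within the young day range and Nr1d1 was below it.

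**Figure D3:**
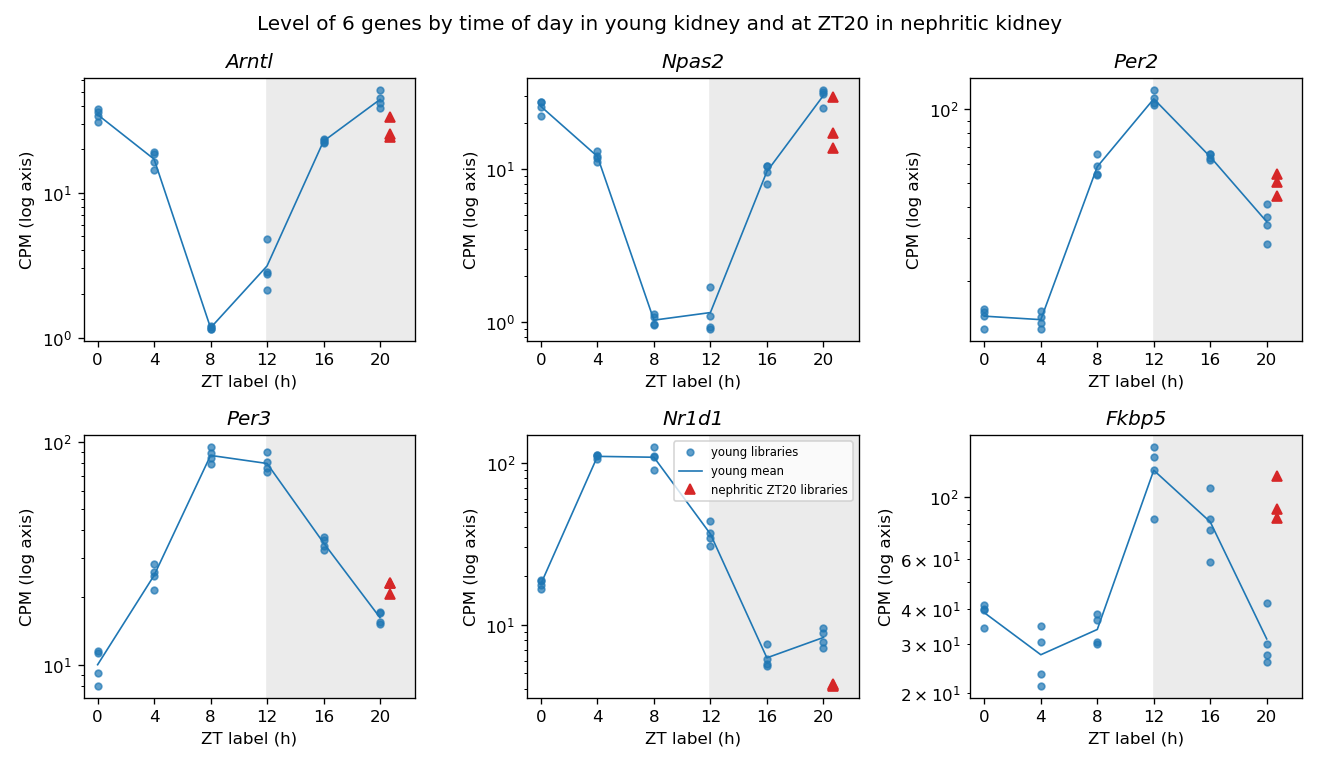
CPM on a log axis is plotted against the time label for 6 genes, with young libraries as circles (4 per time), their means as a line, the 3 nephritic ZT20 libraries as triangles set slightly right of ZT20, and the dark phase shaded. Triangles of Arntl, Per2 and Per3 lie between the young means of ZT16 and ZT20, those of Nr1d1 below every young mean, and those of Fkbp5 above the young ZT16 mean of 81.7 CPM.

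The choice of young comparison time changed the clock result far more than the immune result. Nephritic ZT20 libraries were tested against young libraries of each time in one fit of 46 libraries and 17339 genes. These comparisons share the 3 nephritic libraries and stand side by side. Of genes tested at ZT20, 34 of 37 clock genes and 36 of 140 immune genes were rhythmic in young mice. A stronger dependence of the clock lists on the young time follows from this. Young ZT20 libraries were not compared with the same times, so the part of nephritis in it was not tested. Against young ZT0, ZT4, ZT8, ZT12, ZT16 and ZT20, the number of genes called was 2916 (16.8%), 4894 (28.2%), 4508 (26%), 2067 (11.9%), 1485 (8.56%) and 1404 (8.1%). Of 38 clock genes, 11, 20, 24, 21, 1 and 1 were called, with a median absolute log2 change of 0.39, 0.54, 0.74, 0.70, 0.23 and 0.25. Of 146 immune genes, 108, 116, 110, 105, 94 and 101 were called, and of 71 injury genes 31, 34, 38, 27, 17 and 29. Kidney function genes (75 tested) gave 10, 14, 22, 8, 5 and 1 calls. In this fit, which shares 1 estimate of the spread over 46 libraries, the clock lists gave 1 call against either of the neighbouring young times, and the immune lists gave at least 94 against any.

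**Figure D4:**
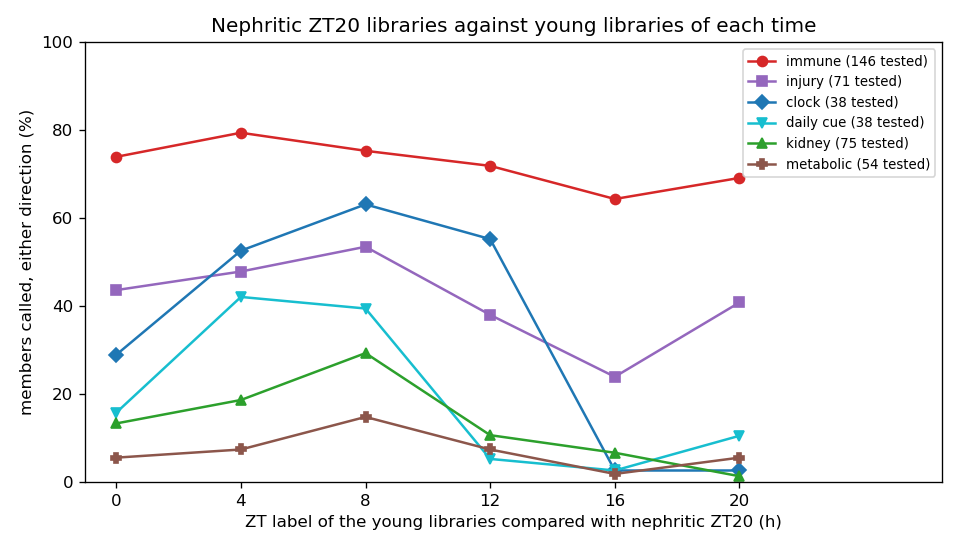
The percentage of tested members called in either direction (y axis) is plotted for the 6 classes of gene lists against the time label of the young libraries that the 3 nephritic ZT20 libraries were compared with (x axis, hours). The immune line stays at 94 to 116 of 146 genes, while the clock line falls from 24 of 38 against ZT8 to 1 of 38 against ZT16 and ZT20.

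Genes called rhythmic in young mice were set beside those that were not. Rhythm was tested in 26 young libraries of the other 5 times, which do not enter the ZT20 comparison. Of 16340 genes 6626 passed (40.6%). All 11 adrenal markers and 10 of 11 adipocyte markers were among them. A gene that passed may therefore vary with other tissue in the sample rather than cycle, which was not tested. Of 6386 rhythmic genes tested at ZT20, 220 were higher and 110 lower (5.17%), and of 8753 others 709 were higher and 106 lower (9.31%). Without RX8LU the shares were 1.25% and 3.95%. By peak time, the genes peaking nearest ZT16 gave 81 higher and 28 lower of 1447, with a median of 0.04. Those peaking nearest ZT4, at the opposite phase of the day, gave 31 higher and 14 lower of 1274, with a median of -0.08. The medians of the 6 peak classes ran from -0.08 to 0.04. Of the 147 rhythmic genes with a log2 amplitude of at least 1, 10 were higher and 2 lower, with a median of -0.01. Among them the 13 peaking nearest ZT12 had a median of 0.37 and 4 higher genes, the 8 peaking nearest ZT8 a median of 0.46 and 1 lower gene, and the 105 peaking nearest ZT16 a median of -0.09 and 4 higher genes. Compared with young ZT4 and ZT8 instead, 38.8% and 37.7% of rhythmic genes were called, beside 21.7% and 18.7% of the others. Young libraries of ZT4 and ZT8 also entered the rhythm test. A larger share among rhythmic genes thus follows in part from how they were chosen, and no conclusion is drawn from it.

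Genes that follow daily signals from outside the clock gave 5 calls of 38, all higher. Fkbp5 (chr17:28398753-28486149), a glucocorticoid-induced chaperone of the glucocorticoid receptor, was 25.3, 29.5, 41.6 and 26.9 CPM in young mice and 87.1, 119.8 and 93.3 CPM in nephritic mice. Every nephritic value was far above every young value, and the log2 change was 1.70 (SE 0.18, adjusted p = 0.0011), with an adjusted p of 0.0061 without RX8LU. Young Fkbp5 followed a daily course, from 27.4 CPM at ZT4 to 125 CPM at ZT12, 81.7 CPM at ZT16 and 31.2 CPM at ZT20, so the nephritic mean of 98.3 CPM was within the young day range and next to the young ZT16 level. Against young ZT16, tested in the fit of 46 libraries, the log2 change was 0.28 (adjusted p = 0.56).

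Of 12 glucocorticoid-responsive genes, Fkbp5, Cdkn1a and Mt2 were called. Tsc22d3 (Gilz) was 56.3, 57.2, 72.3 and 80.9 CPM in young mice and 85, 135 and 98.4 CPM in nephritic mice, without overlap but with an adjusted p of 0.061. Sgk1, a kinase that raises sodium uptake, was 188, 218, 239 and 341 CPM in young mice and 313, 586 and 382 CPM in nephritic mice, with an overlap and an adjusted p of 0.1. Cdkn1a, an inhibitor of the cell cycle, rose by 0.98 (SE 0.18, adjusted p = 0.011) on the log2 scale and Mt2, a metallothionein, by 1.34 (SE 0.29, adjusted p = 0.025). Mt2 was 36.1, 33.9, 21 and 29.5 CPM in young mice and 101, 41 and 87.2 CPM in nephritic mice, with RX90 nearest the young libraries. Of 13 immediate early genes, Ier3 (0.98, adjusted p = 0.024) and Myc (0.90, adjusted p = 0.049) passed, and Fos was 23.1, 43.1, 48.9 and 22.7 CPM in young mice and 71.1, 66.3 and 69.1 CPM in nephritic mice (adjusted p = 0.054). Without RX8LU, Fkbp5 was the 1 gene of these 38 that passed. The 12 heat shock genes had a median log2 change of -0.10 and the 2 cold-inducible genes one of 0.05.

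Lymphocyte genes were higher almost throughout. All 16 T cell genes tested were higher, with a median log2 change of 2.40, and 12 of 14 B cell and plasma cell genes, with a median of 3.12. Without RX8LU these counts were 10 and 11. Pou2af1, a transcriptional coactivator of B cells, was 0.196, 0.0673, 0.508 and 0.186 CPM in young mice and 8.68, 7.79 and 8.65 CPM in nephritic mice, far lower in every young library and nearly even in the 3 nephritic ones. Its log2 change was 5.08 (SE 0.41, adjusted p = 0.00032). Jchain, which joins secreted immunoglobulin and marks plasma cells, was 4.73, 5.22, 17.8 and 7.96 CPM in young mice and 212, 104 and 197 CPM in nephritic mice, with RX90 the lowest nephritic value and still above every young one.

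Among T cell genes Cd2, an adhesion receptor, was 0.620, 0.404, 0.418 and 0.465 CPM in young mice and 3.72, 3.61 and 4.15 CPM in nephritic mice and was higher by 3.00 (SE 0.22, adjusted p = 0.00025) on the log2 scale. Pdcd1, the inhibitory receptor PD-1, was 0.0979, 0.101, 0.0896 and 0.0310 CPM in young mice and 2.24, 1.07 and 1.14 CPM in nephritic mice, higher by 4.18 on the log2 scale (adjusted p = 0.0012). For both genes the lowest nephritic value was several times the highest young value.

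Genes of macrophages, antigen presentation and IgG binding were called in large part as well. Of 21 macrophage and myeloid genes 16 were higher (9 without RX8LU, median 1.86), of 10 MHC class II genes all 10 (9 without RX8LU, median 1.77) and of 6 Fc receptors 4 (4 without RX8LU, median 2.09). Fcgr4 (chr1:171018926-171029761), an activating receptor for IgG on myeloid cells, was 0.522, 0.909, 0.627 and 0.496 CPM in young mice and 11.8, 10.7 and 10.9 CPM in nephritic mice, higher by 4.12 (SE 0.21, adjusted p = 0.00011) on the log2 scale. Itgam, the myeloid integrin CD11b, was 1.11, 0.876, 1.70 and 1.08 CPM in young mice and 24.2, 11.5 and 20.4 CPM in nephritic mice, higher by 3.96 on the log2 scale (adjusted p = 0.00027). Cd74, the MHC class II chaperone, was 113, 106, 109 and 122 CPM in young mice and 584, 226 and 455 CPM in nephritic mice, and its rise of 1.91 (adjusted p = 0.0032) was smallest in RX90, where it still exceeded every young value.

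Complement, interferon and chemokine genes completed the immune group. Of 21 complement genes 12 were higher (7 without RX8LU), of 26 interferon-stimulated genes 20 (12 without RX8LU), and of 26 chemokines 15 were higher (12 without RX8LU) and 1 lower. C1qb, a subunit of the complement starter C1q, was 14.2, 12.3, 10.9 and 11.2 CPM in young mice and 86, 60.5 and 81.7 CPM in nephritic mice, higher by 2.65 (SE 0.15, adjusted p = 0.00011) on the log2 scale. Mx1, an antiviral GTPase induced by interferon, was 0.913, 1.35, 0.986 and 1.08 CPM in young mice and 5.80, 3.11 and 5.41 CPM in nephritic mice, higher by 2.14 on the log2 scale (adjusted p = 0.002). Cxcl13, which draws B cells into follicles, was 0.685, 0.775, 0.717 and 0.403 CPM in young mice and 13.9, 5.55 and 12.1 CPM in nephritic mice, higher by 4.02 on the log2 scale (adjusted p = 0.00046). The chemokine that fell was Cxcl12, made by stromal cells, at 151, 158, 169 and 154 CPM in young mice and 102, 118 and 102 CPM in nephritic mice (log2 change -0.56, adjusted p = 0.0076, and 0.064 without RX8LU).

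Young means of C4b and C3 differed widely between ZT16 and ZT20. C4b, which acts early in the complement cascade, had a young mean of 17.5 CPM at ZT20 and 88 CPM at ZT16. Its nephritic mean was 98.8 CPM. The log2 change of C4b was 2.55 (adjusted p = 0.00024) against young ZT20. Against young ZT16, tested in the fit of 46 libraries, it was 0.17 (adjusted p = 0.91). C3, the central complement protein, had young means of 89.6 CPM at ZT20 and 602 CPM at ZT16 and a nephritic mean of 306 CPM. C1qb by contrast had young means of 12.3 CPM at ZT20 and 15.6 CPM at ZT16 and was higher than both.

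Several tubular injury genes were much higher in RX110 and RX8LU than in RX90. Of 18 tested 11 were higher, with a median of 1.42, and 5 without RX8LU. Lcn2 (chr2:32384637-32387739), the injury marker NGAL, was 3.62, 3.30, 2.24 and 2.45 CPM in young mice and 91.1, 4.78 and 73.8 CPM in nephritic mice. RX110 and RX8LU were more than 20 times the highest young ZT20 value and RX90 little above it. The log2 change was 4.29 (SE 0.78, adjusted p = 0.012). The young mean of Lcn2 was 9.42 CPM at ZT16 and 2.94 CPM at ZT20. Against young ZT16, tested in the fit of 46 libraries, its log2 change was 2.56 and did not pass (adjusted p = 0.11). Against young ZT20 in that fit it was 4.27 (adjusted p = 0.0086). Krt20, a keratin of injured tubule cells, was 1.83, 1.11, 0.926 and 1.30 CPM in young mice and 25.8, 1.00 and 20 CPM in nephritic mice, and Vcam1, an adhesion molecule of inflamed vessels and tubules, was 7.31, 8.05, 16.3 and 11.8 CPM in young mice and 148, 15.3 and 111 CPM in nephritic mice. In both, RX90 was within the young range, and the log2 changes were 3.60 (SE 0.81, adjusted p = 0.03) and 3.07 (SE 0.63, adjusted p = 0.02). Without RX8LU, Lcn2 had an adjusted p of 0.046, Krt20 of 0.11 and Vcam1 of 0.077, and without RX90 all 3 had one of at most 0.00039.

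Havcr1, which encodes the proximal tubule injury marker KIM-1, was 40.2, 60.1, 49.8 and 40 CPM in young mice and 239, 22.3 and 193 CPM in nephritic mice, with RX90 below every young value, and was not called (log2 change 1.67, adjusted p = 0.14). Spp1, the secreted phosphoprotein osteopontin, was 1282 to 1608 CPM in young mice and 7477, 1471 and 6212 CPM in nephritic mice (log2 change 1.80, adjusted p = 0.038). Both, with C3, Clu and Vim, were chosen after their values were seen. Clu, a secreted chaperone, and Vim, a filament protein of dedifferentiated tubule cells, were raised in all 3 nephritic libraries. Clu was 377, 424, 318 and 336 CPM in young mice and 1184, 655 and 1039 CPM in nephritic mice, and Vim was 44.5, 47.6, 48.8 and 48.7 CPM in young mice and 148, 77.4 and 135 CPM in nephritic mice, and their log2 changes were 1.40 (SE 0.20, adjusted p = 0.0037) and 1.34 (SE 0.19, adjusted p = 0.0038).

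**Figure D5:**
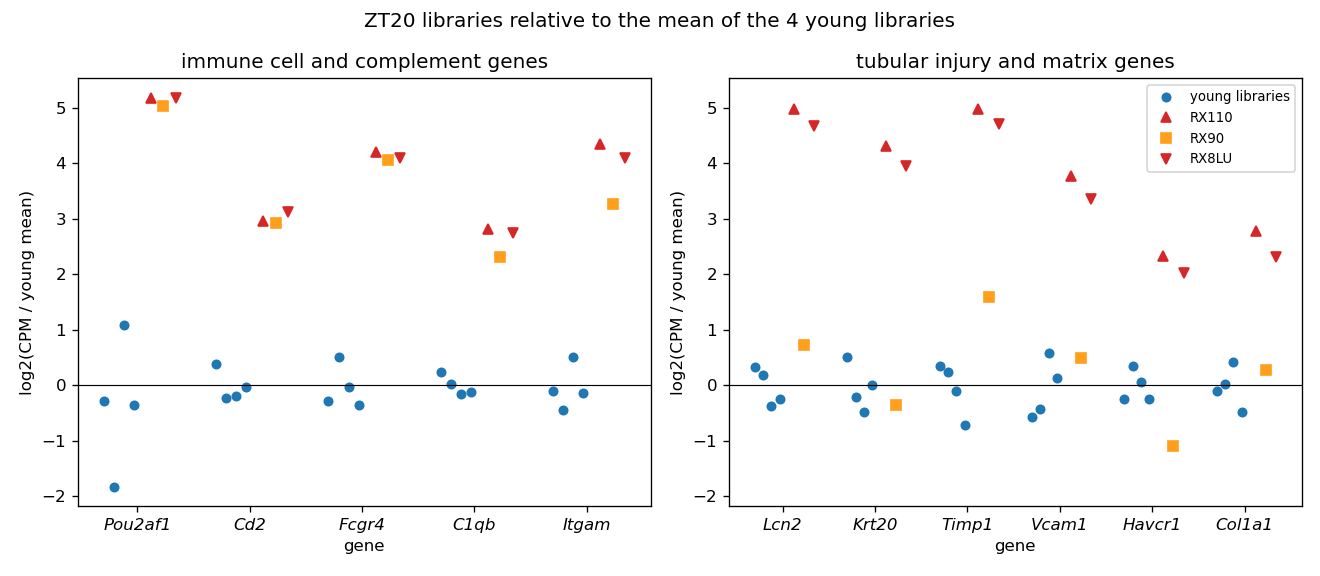
The y axis is log2 of each ZT20 library's CPM over the mean of the 4 young libraries for 5 immune genes (left) and 6 injury or matrix genes (right), with young libraries as circles and nephritic RX110, RX90 and RX8LU as up triangle, square and down triangle. For Pou2af1, Cd2 and Fcgr4 the 3 nephritic points nearly coincide, while for the injury genes the RX90 square lies far below RX110 and RX8LU and for Krt20, Vcam1, Havcr1 and Col1a1 within or below the young values.

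Of 27 matrix and fibroblast genes 7 were higher (2 without RX8LU, median 0.76). Col1a1, the main fibrillar collagen, was 11.4, 12.5, 16.6 and 8.80 CPM in young mice and 84.5, 14.9 and 60.9 CPM in nephritic mice, with RX90 inside the young range (log2 change 2.12, adjusted p = 0.029). Timp1, an inhibitor of matrix proteases, was 0.326, 0.303, 0.239 and 0.155 CPM in young mice and 8.04, 0.769 and 6.71 CPM in nephritic mice, higher by 4.33 (SE 0.72, adjusted p = 0.0076) on the log2 scale, with the lowest nephritic value, that of RX90, above every young value. Of 24 cell cycle genes 18 were higher (8 without RX8LU, median 1.38). Mki67, a nuclear protein of dividing cells, was 2.74, 3.74, 4.06 and 3.87 CPM in young mice and 23, 13.2 and 20.4 CPM in nephritic mice, higher by 2.39 on the log2 scale (adjusted p = 0.00051), and here RX90 was above every young library.

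Falls were fewer and mostly smaller, and they touched transport, vascular and lipid genes. Among 29 proximal tubule genes 2 fell, and their list median was -0.34. Lrp2, the endocytic receptor megalin that takes up filtered protein, was 2836, 2915, 4228 and 2825 CPM in young mice and 1547, 1977 and 1625 CPM in nephritic mice. Its log2 change was -0.90 (SE 0.18, adjusted p = 0.02), and the highest young value was that of ZT20LU. Slc17a3, a phosphate and urate transporter, was 336, 386, 380.0 and 362 CPM in young mice and 255, 259 and 263 CPM in nephritic mice and fell by 0.50 on the log2 scale (adjusted p = 0.012). Neither passed without RX8LU (adjusted p = 0.12 and 0.081).

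Further along the nephron, Aqp4, a water channel of the collecting duct, was 168, 208, 236 and 215 CPM in young mice and 89.2, 61.7 and 86.4 CPM in nephritic mice, lower, with a log2 difference of -1.39 (SE 0.16, adjusted p = 0.0016), while Trpv5, the calcium channel of the distal tubule, was 12.9, 14.9, 16 and 11.8 CPM in young mice and 29.2, 26.1 and 28.5 CPM in nephritic mice, higher by 1.00 (SE 0.12, adjusted p = 0.002) on the log2 scale. Both also passed without RX8LU, at 0.01 and 0.016. They were the calls among 25 loop, distal and collecting duct genes. Of 9 vascular tone genes, Ace, which makes angiotensin II, was lower (-0.76, adjusted p = 0.034) and Edn1, the vasoconstrictor endothelin, higher (1.43, adjusted p = 0.042). Neither passed without RX8LU (adjusted p = 0.14 and 0.16), and Edn1 did not pass without ZT20LU (adjusted p = 0.07). Over 16 alternative settings Ace was called in 7 and Edn1 in 5. The 11 podocyte genes had a median log2 change of 0.22, and 2 of them were higher without ZT20LU.

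Sterol and fatty acid synthesis gave 4 falls of 18 and no rise. Insig1, which holds the sterol sensor in the endoplasmic reticulum, was 112, 120.5, 123 and 114 CPM in young mice and 64, 75.2 and 68.4 CPM in nephritic mice, lower, with a log2 difference of -0.76 (SE 0.09, adjusted p = 0.0014). Cyp51, a demethylase of cholesterol synthesis, was 405, 480.3, 497 and 468 CPM in young mice and 293, 258 and 289 CPM in nephritic mice (-0.72, adjusted p = 0.0049), and Srebf1, the transcription factor of lipogenesis, was 164, 172, 175 and 170.5 CPM in young mice and 122, 92.7 and 101 CPM in nephritic mice (-0.70, adjusted p = 0.0053). These 3 passed without RX8LU, at adjusted p values of 0.016, 0.035 and 0.044. Of 30 fatty acid oxidation and PPAR-alpha genes, Slc27a2, a very long chain acyl-CoA synthetase, fell (-0.54, adjusted p = 0.028) and Angptl4, an inhibitor of lipoprotein lipase, rose. Angptl4 was 13, 12.6, 9.14 and 9.95 CPM in young mice and 27.3, 41.4 and 29.6 CPM in nephritic mice (log2 change 1.55, SE 0.18, adjusted p = 0.0016), and its nephritic mean of 32.2 CPM stood near the young ZT16 mean of 28.8 CPM. Among 6 gluconeogenesis genes Fbp1 fell (-0.49, adjusted p = 0.035, and 0.2 without RX8LU).

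The largest rises among genes with a mean of at least 1 CPM included Il1f6, Glycam1, Pou2af1, Fpr2 and Cd300e. Each was under 1 CPM in every young library and met that mean, taken over the 7 libraries, only through the nephritic ones. Glycam1, a ligand of L-selectin made by venules that admit lymphocytes, was 0.0326, 0.303, 0.0896 and 0.0620 CPM in young mice and 6.93, 3.61 and 5.51 CPM in nephritic mice (log2 change 5.45, SE 0.50, adjusted p = 0.00059). Fpr2, a formyl peptide receptor of phagocytes, was 0.163, 0.101, 0.0299 and 0.0930 CPM in young mice and 3.11, 3.48 and 3.21 CPM in nephritic mice (log2 change 5.04, adjusted p = 0.00024). Il1f6, which encodes the cytokine IL-36 alpha, was 0.0652, 0, 0.0299 and 0 CPM in young mice and 4.18, 0.0669 and 3.21 CPM in nephritic mice, at or near 0 in the young libraries and in RX90, with an adjusted p of 0.017 and of 0.062 without RX8LU. The largest falls included Serpina6, the corticosteroid-binding globulin, at 30.3, 55.3, 19.1 and 37.2 CPM in young mice and 3.39, 5.12 and 3.89 CPM in nephritic mice (log2 change -3.11, SE 0.36, adjusted p = 0.0014). Vcan, a proteoglycan of the matrix, was 16, 11.6, 6.13 and 9.33 CPM in young mice and 3.27, 2.17 and 3.40 CPM in nephritic mice (-1.86, adjusted p = 0.0097), and Mmp13, a collagenase, was 1.99, 2.26, 2.69 and 2.66 CPM in young mice and 0.856, 0.468 and 0.713 CPM in nephritic mice (-1.80, adjusted p = 0.0049). Serpina6, Vcan and Mmp13 were lower in every nephritic library than in any young one.

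Most level changes at ZT20 had the same sign at the other times, and Arntl and Per3 were among the exceptions. Over the other 5 time points, with 50 other libraries, 5120 genes were higher (29.4%) and 5087 lower (29.2%) of 17397 tested. Of the 964 genes higher at ZT20, 955 had the same sign there, 933 were called the same way and 1 the opposite way, and of the 216 lower genes 207 had the same sign, 182 were called the same way and 2 the opposite way. Arntl, lower at ZT20, was 0.70 (adjusted p = 0.00011) over the other times, and Per3, higher at ZT20, was -0.58 (adjusted p = 4.3e-05). Both were called in the opposite direction there.

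The difference between the ZT20 effect and the mean effect of the other times was tested across 17521 genes. By edgeR 0 genes passed, 907 had an unadjusted p under 0.05 (5.18%), and the lowest adjusted p was 0.351. DESeq2 called 4 genes and limma 1, Mettl7a2. Among the 4 was Fkbp5 (adjusted p = 0.042), which a fit of set 2 libraries also called (adjusted p = 0.0497). The other 3 were Cyp11b2, an adrenal steroid enzyme, and the pancreatic enzyme genes Try4 and 2210010C04Rik, which rested on almost no reads at ZT20. Cyp11b2 was 3.7 CPM in ZT20LU, the library with adrenal transcripts, and 0 in the other ZT20 libraries. Try4 was at most 0.032 CPM, and 2210010C04Rik was 0.033 CPM in ZT20RU and 0 elsewhere at ZT20. An unadjusted p under 0.05 for this difference was found for 11 of 37 clock genes, 6 of 140 immune genes, 1 of 69 injury genes and 9 of 74 kidney function genes, of which 6 were among the 25 loop, distal and collecting duct genes. Arntl had 0.00088, Npas2 0.00058, Per3 0.00078 and Fkbp5 5.6e-05, and none of these passed the adjustment over all genes in this edgeR fit.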

How the data were processed

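Kidney RNA of 3 nephritic and 4 young NZB/W F1 mice at ZT20 was sequenced on an Illumina HiSeq 4000 in paired reads of 150 bases, and 50 libraries of the other times served for reference. The authors deposited counts of reads for each gene symbol as whole numbers, not normalized. Per the labels the build was mm10 and HISAT was named among the tools, and the study's methods name alignment by the Burrows-Wheeler algorithm and counting of uniquely aligned reads. Whether counting used strand is not given in the sources used here.

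Genes with at least 100 counts over the libraries of a fit were tested with edgeR 4.0.16 (TMM factors, quasi-likelihood test, Benjamini-Hochberg adjustment, adjusted p of at most 0.05) in R 4.3.3. Every p-value in the text is two-sided and comes from that test unless DESeq2 1.42.0 or limma 3.58.1 is named. The ZT20 comparison used the 7 libraries alone. The difference of the ZT20 effect used 57 libraries with time and RNASeq set, the rhythm test 26 young libraries and the comparison with each young time 46 libraries of set 2. The set is not in the labels and was taken from title prefixes whose numbers per group and time match the study's set 1. The clock reading used 12 genes. On simulated data the 7 libraries recovered 85 of 100 changes of 2-fold, and 64 of 98 without RX8LU. For the difference, 64 of 100 were recovered.

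Genes named were all clock and daily cue members, up to 5 called members per direction of the other lists by size of change (any member where fewer than 3 were called), and the 10 largest rises and falls, apart from 1 gene that is not reported here. Members, lists and rules were chosen with earlier results of these data known. The alternatives were DESeq2, limma, RLE factors, other filters on low counts, fits of 57 or set 2 libraries and leaving out each library. Leaving out both RX8LU and ZT20LU, and summing RX110 and RX8LU as 1 sample, were chosen after seeing the data. Promoters came from RefSeq. Microarrays and remission mice were not analysed here.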

Additional observations from a re-analysis of the deposited data

Results flagged for a closer look

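Among the 4 young ZT20 libraries, several genes had 1 library far from the other 3 by Dixon's criterion, which chance alone meets in about 1 of 20 groups. ZT20LU stood apart with the adrenal genes Cyp11b1 (124 CPM), Cyp21a1 (181 CPM), Cyp11a1 (113 CPM), Hsd3b1 (232 CPM), Star (148 CPM) and Chga (56.9 CPM). It also stood apart with Clock (103 CPM), Ciart (1.61 CPM) and Lrp2 (4228 CPM). ZT20RL stood apart with Npas2 (24.9 CPM) and ZT200 with Pdcd1 (0.031 CPM). Of 84 genes examined 11 met the criterion, 9 of them for ZT20LU.

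Clock readings of the nephritic libraries differed between time labels. At ZT20 they were earlier than the label in all 3 libraries (mean -2.31 h), and at ZT16 later in all 3 (4.57 to 7.07 h). This difference was not tested.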

How the results depend on the processing

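No paired analysis was possible because the labels give the nephritic and young libraries no shared replicate numbers. The sum of RX110 and RX8LU as 1 sample gave 428 higher and 43 lower genes, and 3 young against 2 nephritic libraries gave 357 and 66. DESeq2 gave 556 lower genes. For the difference of the ZT20 effect, DESeq2 called 4 genes, set 2 libraries 4 and limma 1. Leaving out 1 library at a time gave 394 to 1432 higher genes (without ZT20RU 598, ZT20RL 571 and ZT200 511) and 38 to 621 lower (without ZT20RL 109, ZT20LU 534 and ZT200 108), and 0 to 1 for the difference.

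Against young ZT0, ZT4, ZT8, ZT12, ZT16 and ZT20, leaving out 1 library gave 1184 to 3675, 2486 to 5650, 2106 to 5115, 947 to 2380, 571 to 1618 and 598 to 1611 genes, each lowest without RX110 (without RX8LU 1455, 2971, 2417, 1063, 666 and 753). For the lists, it gave 69 to 116 immune and 15 to 52 injury genes higher, 1 to 11 kidney and 3 to 15 metabolic genes lower, and 0 to 4 higher and 1 to 3 lower clock genes. With 3 young and 2 nephritic libraries these were 66 immune, 11 injury, 1 kidney, 2 metabolic, 0 and 0 clock genes, and with RX110 and RX8LU as 1 sample 16 injury, 1 kidney, 3 metabolic, 0 higher and 1 lower clock genes. In a fit of 57 libraries 23 injury, 0 kidney, 1 metabolic, 0 higher and 1 lower clock genes were called, and with set 2 libraries 1 kidney, 1 metabolic, 0 higher and 1 lower clock genes. Kidney genes lower were 12 by DESeq2 and 7 without the filter.

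The clock reading was -1.89 h from the label in nephritic mice with all 30 young libraries as the template. With 100 rhythmic genes it turned to 4.53 h in nephritic and 4.23 h in young mice. The cause of these changes was not tested. Of 94 called genes that could be named, 94 stayed called in the same direction by DESeq2, 93 with RLE factors, 85 by limma, 65 in the fit of 57 libraries, 64 without RX8LU and 55 with 3 young and 2 nephritic libraries.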
